A study of Homo sapiens with 8 samples.

Results

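Epidermal growth factor (EGF) family ligands, their ERBB receptors, the fibroblast growth factor carrier FGFBP1 and its cargo FGF2 were followed in cells labelled HepG2, a human liver tumour line. The 10 genes were AREG, EREG, HBEGF, TGFA, NRG1, EGFR, ERBB2, ERBB3, FGFBP1 and FGF2, out of 18555 genes in the deposited count table, and each was matched by its NCBI Gene ID. The genes were chosen by family, except that FGFBP1 was selected on its measured counts, which were higher in siXBP1 in these same libraries. Differences between siXBP1 and siNC are therefore given for the 10 genes as fold changes with standard errors. How many of them the fits over all genes called is given as a description that supports nothing.

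The compared groups were siXBP1, cells transfected with an siRNA against XBP1 (3 libraries), and siNC, cells transfected with the Allstar control siRNA (3 libraries). In both groups thapsigargin at 30 nM for 3 hours followed 2 days after transfection, per the labels' protocols, so every library comes from cells under stress of the endoplasmic reticulum (ER) and there was no RNA-seq arm without the drug. XBP1 encodes a transcription factor of the unfolded protein response, and thapsigargin sets off that response by blocking the ER calcium pump. All libraries come from 1 cell line, and the labels do not say whether replicates were separate cultures, so p-values measure a spread that may be technical. The series also holds 2 ChIP-seq samples of XBP1s, not analysed here.

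EGF-family ligands are made as membrane-anchored precursors that pass through the ER and Golgi and are shed at the cell surface by metalloproteases such as ADAM17. The released ligand makes ERBB receptors pair, and the pair signals through adaptors such as GRB2 and SHC1 to the RAS-ERK cascade, which in turn induces its own inhibitors, the Sprouty and DUSP genes. FGF2 has no signal peptide, leaves the cell without passing through the ER, and is held in the matrix on heparan sulfate. FGFBP1, a secreted protein, binds it and releases it from that store. In the liver EGFR and its ligands are known for their part in regeneration and in tumour growth.

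Library totals ran from 38209972 to 38890070 counts, and 3 counts, taken as the floor, corresponded to 0.0771 to 0.0785 CPM (counts scaled to a common library total). XBP1 itself had 290, 299 and 276 CPM in the siXBP1 libraries, against 552, 502 and 500 CPM in the siNC libraries, which left 55.7% of the transcript on average. Defining hepatocyte transcripts were at or near the floor: of 18 markers 11 had a row, 2 of them reached a mean of 1 CPM, and their summed level ran from 3.43 to 8.65 CPM in siXBP1 libraries and from 5.15 to 5.5 CPM in siNC libraries. AFP had 0 to 6 counts per library. Of 9 markers of other epithelial lines, only 3, KRT17, KRT7 and KRT14, reached a mean of 1 CPM. The 9 summed to 4171 to 5298 CPM in siXBP1 libraries and to 4265 to 5686 CPM in siNC libraries. Nearly all of it was KRT17 and KRT7. KRT5, KRT6A, KRT19 and TP63 had means under 1 CPM, and the epithelial genes CDH1 and EPCAM stayed at or under 24 counts. Fibroblast markers summed to 346 to 353 CPM in siXBP1 libraries and to 323 to 340 CPM in siNC libraries, with 5 of 7 at a mean of at least 1 CPM. Endothelial markers summed to 7.4 to 10.3 CPM in siXBP1 libraries and to 8.52 to 9.84 CPM in siNC libraries, and leukocyte markers to 40.5 to 43.5 CPM in siXBP1 libraries and to 37.5 to 44.1 CPM in siNC libraries, nearly all of it CD68. Among these genes the groups did not overlap for PECAM1 and TEK, which were higher, and CD14, which was lower in siXBP1, each below 2 CPM. Their part in the results was not tested. The statements here concern cells labelled HepG2.

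The libraries also differed within groups. On the first principal component of log2 CPM, which held 60.6% of the variance, siXBP1 replicate 3 (0.649) and siNC replicate 1 (-0.641) lay at opposite ends, and the other libraries lay between -0.24 and 0.289. Fold changes whose direction rests on these end libraries are given with and without them. The end libraries were picked as the extremes of a component computed from these same data, so SEs without them may be too small.

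Start regions are shown for the pair of genes whose siXBP1 libraries all lay above their siNC libraries, FGFBP1 and EREG, and for AREG, the gene that follows EREG on chromosome 4. They were copied from RefSeq on GRCh38.p14 (250 bases before to 50 after the annotated start) and read 5′ to 3′ on the strand of the gene. FGFBP1 (gene ID 9982) spans chr4:15935577-15938740 and its region is chr4:15938691-15938990, minus strand. EREG (gene ID 2069) spans chr4:74365145-74388749 and its region is chr4:74364895-74365194, plus strand. AREG (gene ID 374) spans chr4:74445136-74455005 and its region is chr4:74444886-74445185, plus strand. Capitals mark matches to the motifs searched.
FGFBP1: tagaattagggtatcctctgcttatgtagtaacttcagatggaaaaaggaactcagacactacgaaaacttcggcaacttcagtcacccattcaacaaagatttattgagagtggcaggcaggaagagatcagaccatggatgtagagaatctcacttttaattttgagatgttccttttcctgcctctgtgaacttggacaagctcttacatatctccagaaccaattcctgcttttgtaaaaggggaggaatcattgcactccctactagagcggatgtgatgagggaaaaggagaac
EREG: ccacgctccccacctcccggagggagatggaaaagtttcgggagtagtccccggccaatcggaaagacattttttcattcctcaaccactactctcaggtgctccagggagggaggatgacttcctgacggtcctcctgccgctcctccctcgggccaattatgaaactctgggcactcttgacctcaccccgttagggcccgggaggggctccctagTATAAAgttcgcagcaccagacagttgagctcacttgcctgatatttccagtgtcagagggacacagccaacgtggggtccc
AREG: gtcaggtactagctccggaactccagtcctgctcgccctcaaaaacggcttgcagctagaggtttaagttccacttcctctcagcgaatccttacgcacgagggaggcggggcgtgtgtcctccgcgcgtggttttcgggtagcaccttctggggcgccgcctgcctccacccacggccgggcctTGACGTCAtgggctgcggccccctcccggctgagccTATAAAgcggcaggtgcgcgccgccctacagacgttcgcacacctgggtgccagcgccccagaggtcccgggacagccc

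The motifs, searched on both strands, were the XBP1 element TGACGTG, the ER stress response element ERSE (CCAAT and CCACG joined by a spacer of 9 free bases) and the cyclic AMP response element TGACGTCA. Also searched on both strands were the AP-1-like pattern TGANTCA, whose middle base was left free, and the TATA box TATAAA. No pair of matches shown above overlaps. Of 35116 RefSeq start regions of this length, 1.97% hold TGACGTG, 0.0769% ERSE, 1.85% TGACGTCA, 7.71% TGANTCA and 11.5% TATAAA. AREG holds TGACGTCA at -65 and TATAAA at -29 from the start, EREG holds TATAAA at -32, and the FGFBP1 window holds none of the 5. With 42% G and C the FGFBP1 region is also poorer in these bases than the median region (58.7%), whereas EREG has 57.7% and AREG 66.3%. Regions were found for 8 of the 10 genes. None of their 10 regions holds TGACGTG or ERSE. TGANTCA occurs in ERBB2 at -222, as TGATTCA. It also occurs in the region of a second EGFR start at -232 (TGAGTCA) and -136 (TGACTCA), and in no other member's region. A match is a description of the letters and not a site.

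Among the 5 ligands of the set, EREG, which encodes epiregulin, a ligand of EGFR and ERBB4, was the only one whose groups did not overlap. It had 93.5, 107 and 145 CPM in the siXBP1 libraries, against 67, 89.9 and 92.2 CPM in the siNC libraries. The lowest siXBP1 value lay just above the highest siNC value, and the extremes were the end libraries, siXBP1 replicate 3 and siNC replicate 1. The means were 115 ± 26.5 CPM in siXBP1 and 83 ± 13.9 CPM in siNC (SD, n = 3 each). The log2 fold change was 0.47 (SE 0.18). In bulk RNA more expressing cells and more RNA per cell cannot be told apart. Without both end libraries the log2 fold change was 0.14 (SE 0.09), and with 1 library left out at a time it lay between 0.26 and 0.60.

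AREG, which encodes the EGFR ligand amphiregulin, was close to the floor. It had 24, 11 and 17 counts in the siXBP1 libraries and 6, 21 and 8 counts in the siNC libraries. The groups overlap, and the log2 fold change of 0.58 has an SE of 0.60. EREG and AREG lie 56386 bases apart in a run of EGF-family genes that goes on with BTC (betacellulin) 289753 bases beyond AREG and is preceded by EPGN (epigen) 48355 bases before EREG. EPGN had 13.5, 15 and 17 CPM in the siXBP1 libraries, against 9.69, 14.6 and 13.6 CPM in the siNC libraries, with overlap and a log2 fold change of 0.26 (SE 0.18), or 0.02 (SE 0.14) without both end libraries. BTC had 35, 36 and 33 counts in the siXBP1 libraries, against 20, 25 and 13 counts in the siNC libraries. The groups did not overlap for BTC, at a level below 1 CPM in every library (log2 fold change 0.85, SE 0.40). Both EPGN and EREG were highest in siXBP1 replicate 3 and lowest in siNC replicate 1, and the fold changes of both were smaller without these libraries.

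HBEGF, heparin-binding EGF-like growth factor, binds EGFR and ERBB4. It had 14.5, 15.8 and 13.1 CPM in the siXBP1 libraries, against 13.6, 12.4 and 11.8 CPM in the siNC libraries. The groups overlap by a single library on each side, siXBP1 replicate 3 and siNC replicate 1, the end libraries. The log2 fold change was 0.20 (SE 0.13) over all libraries and 0.33 (SE 0.14) without those 2.

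TGFA, which encodes transforming growth factor alpha, an EGFR ligand, had 23.8, 18.1 and 25.6 CPM in the siXBP1 libraries, against 19.8, 21.6 and 22.4 CPM in the siNC libraries. The siXBP1 libraries enclose the siNC range, and the log2 fold change was 0.08 (SE 0.14), or -0.07 (SE 0.13) without both end libraries. NRG1 encodes neuregulin 1, a ligand of ERBB3 and ERBB4. It had 8.34, 7.92 and 9.6 CPM in the siXBP1 libraries, against 7.15, 6.77 and 8.75 CPM in the siNC libraries. The groups overlap, with a log2 fold change of 0.19 (SE 0.16), or 0.07 (SE 0.18) without both end libraries.

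**Figure D1:**
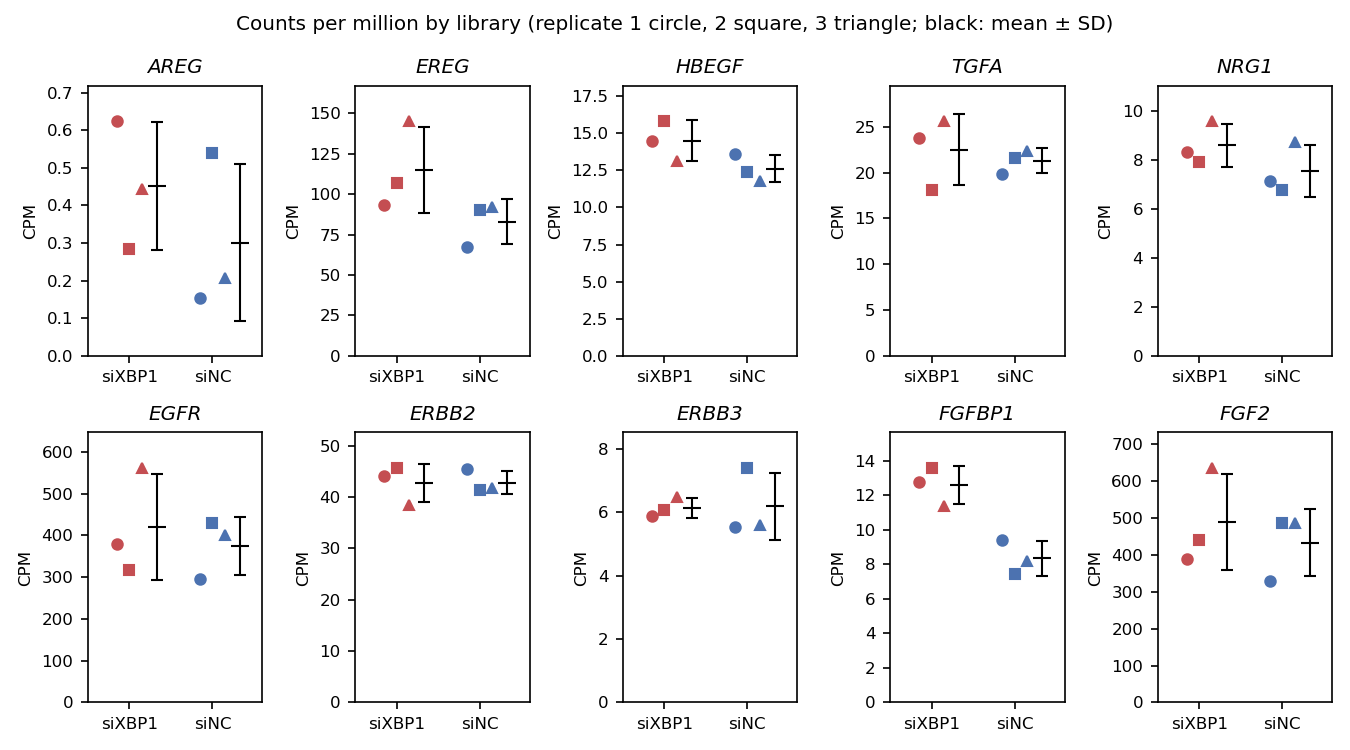
CPM (vertical axis, linear, from 0, own scale for each gene) of the 10 genes in 3 siXBP1 (red, left) and 3 siNC (blue, right) libraries, with symbols for replicate numbers and mean ± SD in black. Only FGFBP1 and EREG have all siXBP1 libraries above all siNC libraries, while EGFR and FGF2 spread widely within both groups.

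Of the receptors, EGFR varied most between libraries, and its groups overlapped. EGFR had 379, 317 and 562 CPM in the siXBP1 libraries, against 296, 429 and 401 CPM in the siNC libraries. The highest value was that of siXBP1 replicate 3, at 1.61 times the mean of the other siXBP1 libraries, and the lowest that of siNC replicate 1, at 0.713 times the mean of the other siNC libraries. The log2 fold change was 0.16 (SE 0.20) over all libraries and -0.25 (SE 0.09) without both end libraries, so its direction depends on them. It was also below 0, at -0.12, without siXBP1 replicate 3 alone.

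ERBB2 encodes the receptor with no known ligand that serves as the favoured partner of the others. It had 44, 45.7 and 38.5 CPM in the siXBP1 libraries, against 45.4, 41.3 and 41.7 CPM in the siNC libraries. Its means were 42.7 ± 3.75 CPM in siXBP1 and 42.8 ± 2.22 CPM in siNC (SD, n = 3 each), and the log2 fold change was 0.00 (SE 0.11). ERBB3, the neuregulin receptor whose own kinase is weak, had 5.87, 6.08 and 6.49 CPM in the siXBP1 libraries, against 5.55, 7.41 and 5.61 CPM in the siNC libraries. Its siXBP1 values lie inside the siNC range (log2 fold change -0.01, SE 0.17). ERBB4, the remaining receptor of the family, had a mean under 1 CPM.

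FGFBP1 was the gene chosen for its rise in siXBP1. It had 12.8, 13.6 and 11.4 CPM in the siXBP1 libraries, against 9.41, 7.44 and 8.18 CPM in the siNC libraries. Every siXBP1 library lay above every siNC library, and neither end library was an extreme of the 6. The means were 12.6 ± 1.12 CPM in siXBP1 and 8.34 ± 0.998 CPM in siNC (SD, n = 3 each), a ratio of 1.51. The log2 fold change was 0.60 (SE 0.15). It lay between 0.51 and 0.69 with 1 library left out and was 0.76 (SE 0.16) without both end libraries. The related carrier gene FGFBP2, 21504 bases away, had 0 to 6 counts per library, and FGFBP3 on another chromosome showed overlap between the groups.

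FGF2 had 390, 442 and 637 CPM in the siXBP1 libraries, against 330, 486 and 487 CPM in the siNC libraries. As for EGFR, the extremes were the end libraries, with siXBP1 replicate 3 at 1.53 times the mean of the other siXBP1 libraries and siNC replicate 1 at 0.678 times that of the other siNC libraries. The log2 fold change was 0.17 (SE 0.20) over all libraries and -0.22 (SE 0.09) without them. The FGF2 span overlaps that of NUDT6, which had 383 to 548 counts per library, EGFR that of EGFR-AS1 (19 to 66 counts) and ERBB2 that of MIEN1 (863 to 1276 counts). Because the strand setting of the counting is not given in the sources used here, reads from the overlaps cannot be assigned with certainty. Each of these partners had fewer counts than the member it overlaps in every library.

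**Figure D2:**
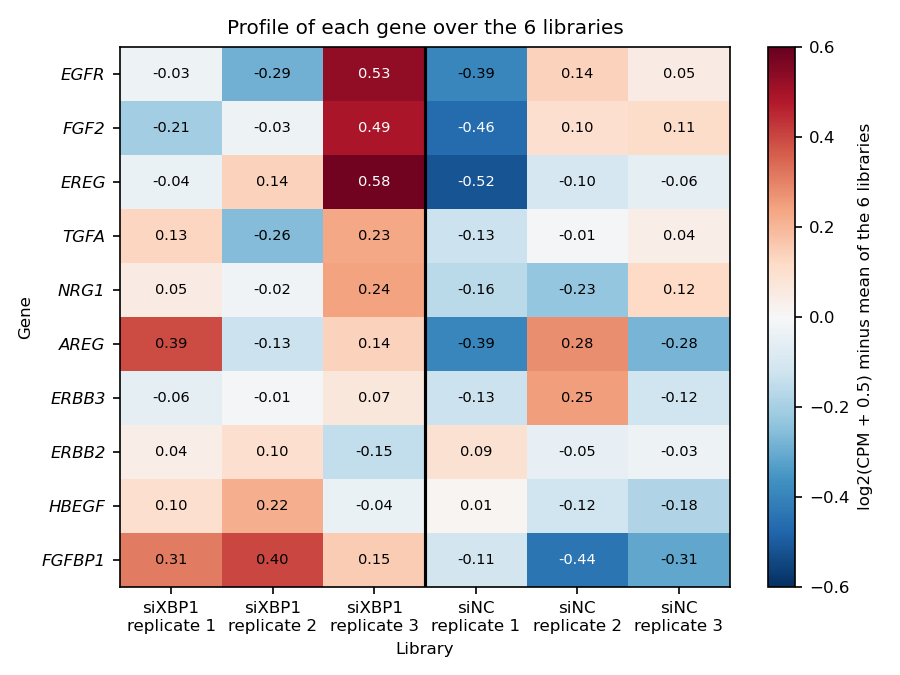
log2(CPM + 0.5) of each gene minus its own mean over the 6 libraries (colour and printed value), with siXBP1 libraries left and siNC libraries right of the line. EGFR, FGF2 and EREG are highest in siXBP1 replicate 3 (0.49 to 0.58) and lowest in siNC replicate 1 (-0.52 to -0.39), whereas FGFBP1 is above 0 in each siXBP1 library and below 0 in each siNC library.

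The 10 genes thus fell into unlike profiles over the libraries. EREG, EGFR and FGF2 were highest in siXBP1 replicate 3 and lowest in siNC replicate 1, an order that 17.3% of all 14337 genes tested had. The highest library was 2.16 times the lowest for EREG, 1.9 times for EGFR and 1.93 times for FGF2. By the root mean square difference of centred log2 profiles over the 6 libraries, FGF2 was the nearest member to EGFR (0.135) and to EREG (0.155). HBEGF and ERBB2 were nearest to each other (0.104), with siXBP1 replicate 3 the lowest siXBP1 library for both, and ERBB2 differed by 1.19 times between its extremes. The member nearest to FGFBP1 was HBEGF, at 0.200. These likenesses describe the same 6 libraries from which the component was computed.

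Among 10744 other genes tested with a mean of at least 5 CPM, the 5 nearest to the FGFBP1 profile were EDN1 (0.045), SALL4 (0.048), ATF3 (0.080), FAM167A (0.084) and KRT34 (0.086). EDN1 encodes the vasoactive peptide endothelin 1, and had 59.2, 62.4 and 55.5 CPM in the siXBP1 libraries, against 42.6, 34.5 and 40.6 CPM in the siNC libraries. ATF3, a stress-induced transcription factor, had 110, 112 and 97.6 CPM in the siXBP1 libraries, against 86.5, 72.5 and 79.6 CPM in the siNC libraries. SALL4, an oncofetal transcription factor, had a log2 fold change of 0.57 (SE 0.18), FAM167A one of 0.50 (SE 0.16) and the hair keratin gene KRT34 one of 0.48 (SE 0.15). The measure looks for genes that differ as FGFBP1 does, so these differences follow from the choice.

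Read against all genes, edgeR's quasi-likelihood test with Benjamini-Hochberg adjustment called 0 of the 10 genes and 1 of the 14337 genes tested (0.00697%), XBP1 itself (adjusted p = 0.0331). Before adjustment, 517 genes had an edgeR p under 0.05, and DESeq2 called 15 genes, or 0.105%, and 0 members. The siXBP1 libraries lay wholly above the siNC libraries for 2 members, where 5.01% of all genes tested did so, and wholly below for 0 members, where 3.74% did. Of the 10 estimates 8 were above 0 and 2 below, with a median of 0.18, against 0.01 and 52.8% above 0 over all genes tested. With the libraries' scores on the first component added to the model, edgeR called 176 genes (1.23%), EREG (log2 fold change 0.36, SE 0.07) and FGFBP1 (0.65, SE 0.13) among them, while EGFR (0.02, SE 0.07) and FGF2 (0.04, SE 0.06) were near 0. That component was computed from the same libraries, so the SEs of this fit may be too small. Without both end libraries edgeR called 702 genes (4.87%) and FGFBP1 alone among the members. Those libraries were picked by the same component, so the SEs of that fit may be too small as well. Since this contrast chose FGFBP1, nothing is read from these shares.

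**Figure D3:**
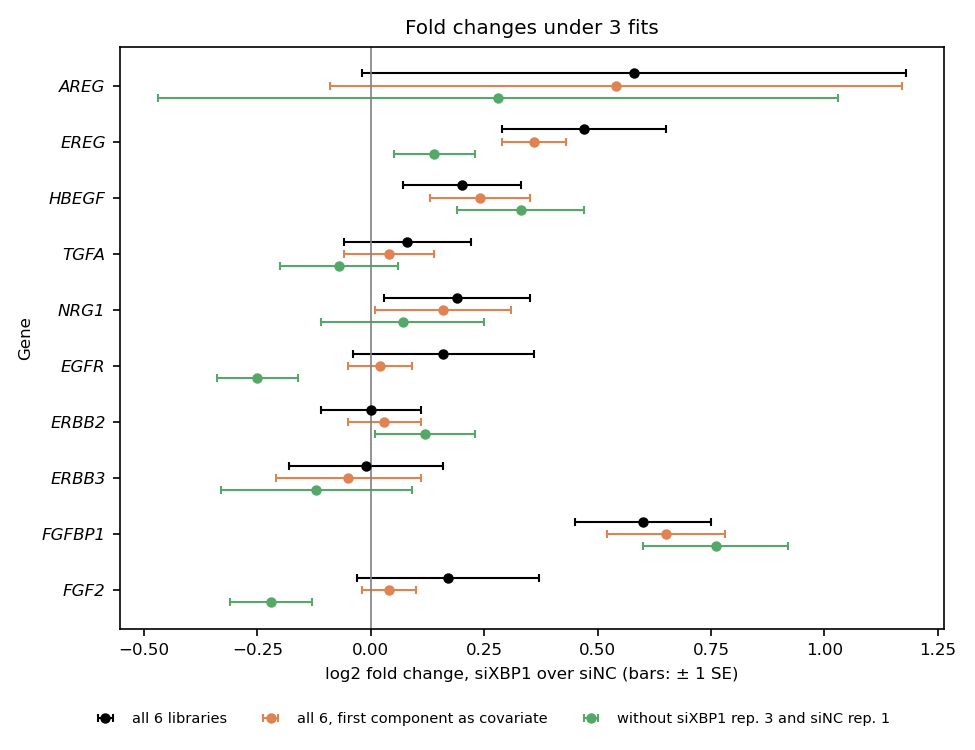
log2 fold changes of siXBP1 over siNC (horizontal axis, bars ± 1 SE) for the 10 genes in edgeR fits of all 6 libraries, of all 6 with the first component as a covariate, and of the 4 libraries left without siXBP1 replicate 3 and siNC replicate 1. FGFBP1 lies between 0.60 and 0.76 in all 3, EREG between 0.14 and 0.47, and EGFR, FGF2 and TGFA turn negative without the end libraries.

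The wider pathway was followed in 8 lists that hold no member, 126 genes in all, of which 116 had a row and 100 were tested. edgeR and DESeq2 called 0 of them over all genes, in either direction. In edgeR 9 of the 100 had an unadjusted p under 0.05, where 517 of all 14337 genes tested did. Estimates were above 0 for 61 and below 0 for 39, with a median log2 fold change of 0.04, against 0.01 over all genes tested. The groups did not overlap for 10 higher and 4 lower genes of the 100, where 5.01% of all genes tested were higher in this way and 3.74% lower. With the first component as a covariate, where 1.23% of all genes tested were called, 6 of the 100 passed as higher and 0 as lower: PHLDA1, DUSP5, FOSL1 and EPHA2 of the ERK-responsive list, SPRY4 of the inhibitors and SDC4 of the proteoglycans. DUSP5, FOSL1, EPHA2 and SDC4 overlapped between the groups in CPM.

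Further upstream, the ligand-processing list had 0 of 14 tested genes called, with 8 estimates above 0, 6 below and a median of 0.02. Its members with the most counts were ADAM9, a membrane metalloprotease (280 ± 46.8 CPM in siXBP1 and 254 ± 40.2 CPM in siNC, SD, n = 3 each), and NRDC, nardilysin, known to enhance ectodomain shedding (228 ± 8.26 CPM in siXBP1 and 230 ± 9.18 CPM in siNC). The groups overlapped for all 14, and the log2 fold change of ADAM9 was 0.14 (SE 0.14) over all libraries and -0.12 (SE 0.08) without both end libraries. Of the other EGF-family ligands and ERBB4, 5 of 7 genes were tested and 0 called. EPGN is described above, and NRG4, a ligand of ERBB4, had a log2 fold change of 0.15 (SE 0.19), or -0.07 (SE 0.19) without both end libraries.

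Downstream of the receptors, 0 of 21 adaptor and RAS-ERK cascade genes were called, with 13 estimates above 0, 8 below and a median of 0.02. The genes with the most counts were the adaptor gene SHC1 (log2 fold change -0.16, SE 0.09) and the phosphatase gene PTPN11 (0.06, SE 0.13, or -0.17, SE 0.08, without both end libraries). The groups did not overlap for PLCG1, phospholipase C gamma 1, with 38.5, 38.2 and 41 CPM in the siXBP1 libraries, against 44.6, 44.8 and 45.5 CPM in the siNC libraries. They did not overlap either for the adaptor gene GRB2, with 87.7, 85 and 83.1 CPM in the siXBP1 libraries, against 93.6, 97.4 and 89.1 CPM in the siNC libraries.

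The list of regulators of ERBB and FGF receptors and of RAS-ERK signalling, mostly inhibitors, had 0 of 19 tested genes called. It had 14 estimates above 0, 5 below and a median of 0.11. SPRY4, an ERK-induced inhibitor of RAS-ERK signalling, had 41.7, 37.5 and 40.3 CPM in the siXBP1 libraries, against 34.8, 27.8 and 32.6 CPM in the siNC libraries (log2 fold change 0.33, SE 0.12). Its relative SPRY2 had 34, 38.7 and 33.6 CPM in the siXBP1 libraries, against 28.6, 28 and 28.7 CPM in the siNC libraries (0.32, SE 0.11). For both, all siXBP1 libraries were above all siNC libraries. Their relatives in the list went both ways, with SPRY1 at -0.63, SPRED2 at -0.04, SPRED3 at -0.80 and SPRED1 at 0.23, and these overlapped. LRIG1, which promotes breakdown of ERBB receptors, had all siXBP1 libraries below all siNC libraries (-0.14, SE 0.10), but only barely. Its highest siXBP1 value was 59 CPM and its lowest siNC value 59.1 CPM. The members with the most counts, NEDD4 (0.23, SE 0.17) and ERRFI1 (0.11, SE 0.11), a direct inhibitor of the EGFR kinase, overlapped. Without both end libraries NEDD4 had -0.09 (SE 0.09).

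Of the ERK-responsive genes 0 of 12 tested were called, with 10 estimates above 0, 2 below and a median of 0.07. PHLDA1 had 195, 187 and 218 CPM in the siXBP1 libraries, against 150, 138 and 166 CPM in the siNC libraries (log2 fold change 0.41, SE 0.10). DUSP6, an ERK phosphatase, had 25, 27.3 and 29.5 CPM in the siXBP1 libraries, against 20.8, 22.7 and 21.9 CPM in the siNC libraries (0.32, SE 0.12). The siXBP1 libraries were above the siNC libraries for both, whereas the genes of the list with the most counts, EPHA2 (0.22, SE 0.10) and MYC (0.04, SE 0.09), overlapped. Without both end libraries the log2 fold change was smaller for PHLDA1 (0.34, SE 0.09) and DUSP6 (0.24, SE 0.12). It was larger for EPHA2 (0.35, SE 0.08) and MYC (0.13, SE 0.08). DUSP5 (0.47, SE 0.20) and FOSL1 (0.30, SE 0.15) also rose, to 0.79 (SE 0.11) and 0.52 (SE 0.10).

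**Figure D4:**
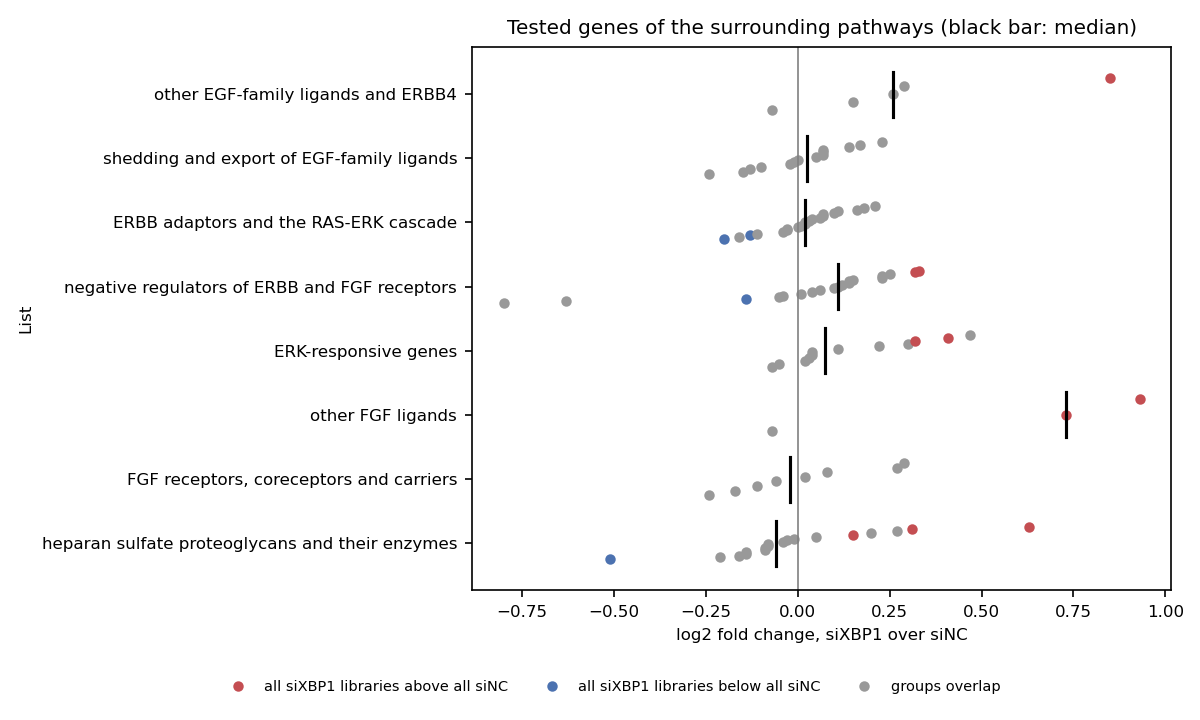
log2 fold changes of siXBP1 over siNC (horizontal axis) of the 100 tested genes of the 8 lists (rows), coloured by whether the groups overlap in CPM, with the median of each list as a black bar. Medians lie between -0.06 and 0.26 except for the 3 tested FGF ligands, at 0.73.

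On the FGF side, of 17 FGF genes other than FGF2, 10 had a row and 3 were tested, with 0 called. FGF1 had 2.08, 3.02 and 2.83 CPM in the siXBP1 libraries, against 1.08, 1.7 and 2 CPM in the siNC libraries. Its groups did not overlap (log2 fold change 0.73, SE 0.30, or 0.47, SE 0.37, without both end libraries). FGF18 did not overlap either (0.93), but had a mean under 1 CPM, as had FGF21 (0.604 CPM), which overlapped. Receptors, coreceptors and carriers had 0 of 8 called, with 4 estimates above and 4 below 0 (median -0.02). Most counts fell on FRS2, the docking protein of FGF receptors (0.29, SE 0.19), and the decoy receptor gene FGFRL1 (-0.11, SE 0.11). Without both end libraries FRS2 had -0.08 (SE 0.10) and FGFRL1 0.00 (SE 0.11).

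Heparan sulfate proteoglycans, which hold FGF2 at the surface and in the matrix, and their enzymes had 0 of 18 called, with 6 estimates above 0, 12 below and a median of -0.06. The genes with the most counts were AGRN, agrin (411 ± 73 CPM in siXBP1 and 437 ± 56.6 CPM in siNC, SD, n = 3 each), and SDC4, syndecan 4 (371 ± 29.2 CPM in siXBP1 and 308 ± 31.8 CPM in siNC). The log2 fold change of AGRN was -0.09 (SE 0.14) over all libraries and 0.11 (SE 0.09) without both end libraries. HPSE, the heparanase that cuts heparan sulfate, had 8.58, 8.64 and 7.35 CPM in the siXBP1 libraries, against 6.61, 7.07 and 6.13 CPM in the siNC libraries (log2 fold change 0.31, SE 0.15). EXT2, which builds the chain, had 104, 110 and 106 CPM in the siXBP1 libraries, against 94.3, 99.9 and 95.5 CPM in the siNC libraries (0.15, SE 0.09). The groups did not overlap for either, nor for SULF1 (0.63) and GPC2 (-0.51), each with a mean under 5 CPM.

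The order of highest in siXBP1 replicate 3 and lowest in siNC replicate 1, seen for EGFR, FGF2 and EREG, was shared by 25 of the 100 pathway genes, against 17.3% of all genes tested. They include ADAM9, ADAM10 and ADAM17 among the ligand-processing enzymes, NRAS, BRAF, SOS1 and PTPN11 in the cascade, and EPGN and FRS2. Also among them are LRIG2, CBL, CBLB, SOCS4, SOCS5, NEDD4, USP8, ERBIN and SPRED1 of the receptor regulators. DUSP6 of the ERK-responsive list had this order too. The opposite order held for 12 of the 100, against 14.3% of all genes tested. CPM are not corrected for transcript length, so an order of genes by counts or CPM is not an order of transcript numbers.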

How the data were processed

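RNA-seq of 3 siXBP1 and 3 siNC libraries was analysed. The deposited values are raw read counts, 1 row per NCBI Gene ID and 1 column per library, from stranded TruSeq libraries per the labels' protocols. STAR 2.5.2a, featureCounts 1.5.0 and hg38 are named in the submitters' processing notes. For the annotation and strand setting no source used here gives a name. RefSeq symbols (GRCh38.p14) were found for 18526 of 18555 IDs, and the other 29 held 0.00349% of the counts. No column was left without a sample. Among counts of 1 to 40, 75.8% to 80.5% were even, as when both mates of a pair are counted, so fragments may be fewer than counts.

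Floors of 3 counts cover counting error only. Groups and replicate numbers come from the sample titles. No replicate pair agreed within sampling noise (chi-square over degrees of freedom 9.37 to 54.7), and each library counted as 1 replicate. CPM were scaled by library totals. Genes kept by filterByExpr were normalized with TMM and tested, two-sided, with edgeR 4.0.16 (R 4.3.3, quasi-likelihood, group as the only term, 4 residual degrees of freedom), with Benjamini-Hochberg adjustment over all 14337 genes and a threshold of 0.05. The SE is the size of the log2 fold change divided by the square root of F. Profiles used log2(CPM + 0.5), and principal components the 11528 genes averaging at least 100 counts. The fit was first tested on simulated data. DESeq2 1.42.0, limma-voom 3.58.1, other scalings, no filter, a replicate block, the first component as covariate and left-out libraries were alternatives.

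The members, lists, motifs, markers and alternatives were chosen with earlier results of these data known. Named are the 10 members, XBP1, the 5 genes nearest to FGFBP1, and for each list the 2 tested genes with the highest mean CPM, any called gene and up to 3 with the largest change among those of at least 5 CPM whose groups do not overlap. Some genes were added after their values were seen. They are the genes called with the component as covariate, BTC, SULF1, GPC2, FGF18, SPRY1, SPRED1, SPRED2, SPRED3 and the marker genes. So are genes overlapping or next to members and those named for their order over libraries.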

Additional observations from a re-analysis of the deposited data

How the results depend on the processing

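XBP1 remained the 1 gene called with size factors, library size alone, no filter, limma-voom or the replicate block, and with 1 library left out 0 to 1 genes were called. DESeq2 called 15 genes, the fit with the first component as a covariate 176, and the fit without both end libraries 702. Of the members these called 0, 2 (EREG and FGFBP1) and 1 (FGFBP1), and with 1 library left out 0 were called. Of the 100 pathway genes tested they called 0, 6 and 11, where 0.105%, 1.23% and 4.87% of all genes tested were called. Of the 176 genes 105 were higher and 71 lower in siXBP1, and of the 702 genes 209 were higher and 493 lower. The 11 were not split by direction. How far the component itself accounts for the added calls was not tested.

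XBP1 passed in no fit without siXBP1 replicate 1 (edgeR adjusted p = 0.475), siXBP1 replicate 2 (0.284), siNC replicate 2 (0.175) or siNC replicate 3 (0.213), with log2 fold changes from -0.88 to -0.84. Over 14 alternatives for each of 10 members, 8 of 140 values moved by more than 1 SD between replicates. The estimates of AREG, EREG, HBEGF, NRG1 and FGFBP1 were above 0 in all 14. TGFA, EGFR and FGF2 were below 0 without siXBP1 replicate 3 (-0.03, -0.12 and -0.07) and without both end libraries (-0.07, -0.25 and -0.22), and ERBB2 and ERBB3, near 0, changed sign in 6 and 4 alternatives. AREG ran from 0.26 to 1.29 with 1 library left out, the highest without siNC replicate 2.

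No pairing by replicate number was assumed in the main fit. Deviations of same-numbered libraries from their group means correlated at 0.61, -0.38 and 0.45, and those of unlike-numbered libraries at -0.77 to 0.67. With 3 libraries per group these values cannot settle whether the numbers pair the samples. With the replicate block edgeR called 1 gene and 0 members. The SE in that fit was 0.10 against 0.18 for EREG, 0.10 against 0.20 for FGF2 and 0.15 against 0.20 for EGFR. For FGFBP1 it was unchanged at 0.15, and for AREG it was larger, 0.68 against 0.60. AREG, at 6 to 24 counts, and BTC are limited by depth.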
